A study of Homo sapiens with 30 samples.

Results

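Human A549 cells whose RSRP1 gene had been knocked out, in the background named iR_KOA, were compared with and without a magnetic field. The comparison took 3 exposed libraries, labelled magnetic exposure 2H, and 3 libraries with no magnetic field, which is 6 of the 30 RNA-seq libraries of the series. A549 is an established lung adenocarcinoma line. All 6 libraries carry the label RSRP1 KO, so the knockout is shared by both groups and the field is the one difference the labels give. The other 24 libraries are exposed and unexposed cells, 3 of each, in the backgrounds KOA and iR_KOA_D3 (RSRP1 KO) and iR_WTA and iR_WTA_D3 (WT). What iR, D3 and 2H stand for, the strength of the field, the number of knockout clones and whether the 3 libraries of a group came from separate cultures are not stated in the labels. The p-values therefore measure the spread between libraries of the same group, pooled over all 10 groups, which may be technical. In bulk RNA, fewer cells that express a gene and less of its RNA per cell cannot be told apart.

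Several stress programmes are described here, and they have different triggers and targets. Unfolded protein in the cytosol releases heat shock factor 1 from chaperones, and the factor then binds GAA repeats before the genes of HSP70, HSP40, HSP90 and their helpers. Unfolded protein in the endoplasmic reticulum (ER) is sensed by IRE1, PERK and ATF6, which raise ER chaperones and the machinery that exports and destroys misfolded protein; this is the unfolded protein response. PERK also belongs to the integrated stress response, in which phosphorylation of eIF2 slows translation while ATF4 and CHOP (the product of DDIT3) drive amino acid and cell death genes. RSRP1 encodes an arginine- and serine-rich protein, a sequence character it shares with SR splicing factors.

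Expression is given in FPKM, the length- and depth-scaled fragment counts that the authors deposited. Differences are exposed minus unexposed on the log2(FPKM + 1) scale, which understates the change of genes near 0, and are followed by the standard error (SE) and a p-value adjusted over all 12086 genes tested. A gene is said to have risen or fallen where the adjusted p was under 0.05. The 30 libraries held from 34620432 to 38939336 reads assigned to genes, as recovered from the FPKM steps, and the 6 compared here from 34698613 to 36941909. Mitochondrially encoded genes took 24.6%, 28.3% and 24.5% of FPKM in exposed libraries 1, 2 and 3 and 24.9%, 24.6% and 24.3% in the unexposed libraries. Exposed library 2 thus stood above the other 5 in this share. The epithelial keratin KRT8 read 1160 to 1266 FPKM over the 6 libraries. In the same libraries ALDH1A1, listed for A549 and lung epithelial identity, read 3803 to 4134 FPKM. EPCAM was low at 0.96 to 1.60 FPKM.

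The targeted gene was checked first. RSRP1 (chromosome 1, 25242249 to 25338254 in GRCh38.p14) read 2.09 to 7.95 FPKM in the 18 RSRP1 KO libraries and 37.4 to 63.4 FPKM in the 12 WT libraries, so no library went against its genotype label. The knockout backgrounds differed among themselves, with 2.09 to 2.70 FPKM in KOA and 5.80 to 7.95 FPKM in iR_KOA and iR_KOA_D3. Within iR_KOA it read 5.80, 6.26 and 6.84 FPKM in exposed libraries 1, 2 and 3 and 7.63, 7.95 and 7.45 FPKM in the unexposed ones. The residual transcript was lower in every exposed library, with a difference of −0.25 ± 0.06 (adjusted p = 0.00185). In iR_WTA, where the gene is intact, the exposure difference was 0.36, and the gap between the 2 backgrounds was −0.61 ± 0.08 (adjusted p = 0.000197). The gap to iR_KOA_D3, where exposure gave 0.13, was −0.39 ± 0.08 (adjusted p = 0.00824), and that to KOA was −0.14 ± 0.08 (adjusted p = 0.424).

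**Figure D1:**
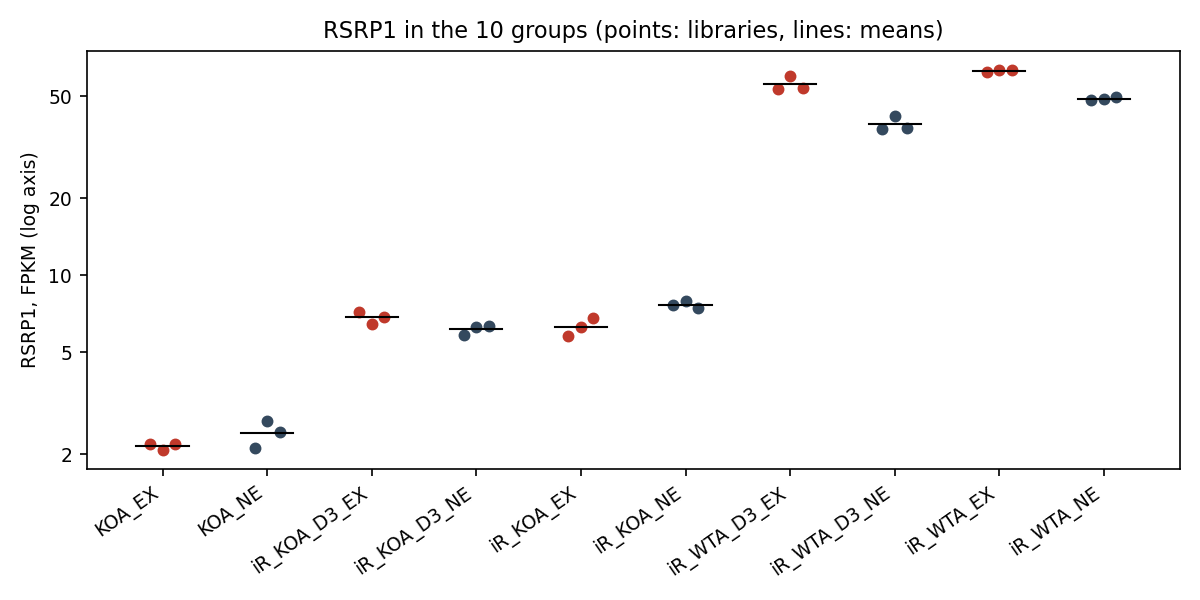
RSRP1 expression (FPKM, log axis) in each library of the 10 groups, with exposed and unexposed libraries of a background side by side. The 18 knockout libraries lie between 2.09 and 7.95 FPKM and the 12 WT libraries between 37.4 and 63.4 FPKM, and the iR_KOA exposed libraries lie under the unexposed ones.

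Exposure changed 4272 of 12086 genes in iR_KOA, or 35.3%: 1578 rose (13.1%) and 2694 fell (22.3%). Most differences were small: 2216 of the 4272 were under 0.25 in absolute size, 308 reached 0.5 (189 higher, 119 lower) and 34 reached 1. Of those 34 genes, 32 rose and 2 fell. The median over all genes tested was −0.05, and the balance of rises and falls moved with the scaling of the libraries: median-of-ratios scaling gave 1858 rises and 1951 falls, and quantile normalization 1881 and 2026. Without exposed library 2 there were 1298 rises and 1835 falls. Fitted on the 6 libraries alone, 2131 genes passed, 906 higher and 1225 lower. The counts of many lists below shrank too, some by a much larger share. Among genes that fell, 1463 were lowest in exposed library 2, 1028 in library 1 and 203 in library 3. Among genes that rose, 698 were highest in library 1, 689 in library 2 and 191 in library 3. All 3 exposed libraries lay above all 3 unexposed ones in 15.8% of genes and below them in 25.5%. The 25 largest rises and falls named below were ranked among genes with a mean of at least 2 FPKM in either group and no overlap between the groups, which leaves out low genes such as BMF. Of 936 non-coding genes tested, 71 rose and 127 fell.

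**Figure D2:**
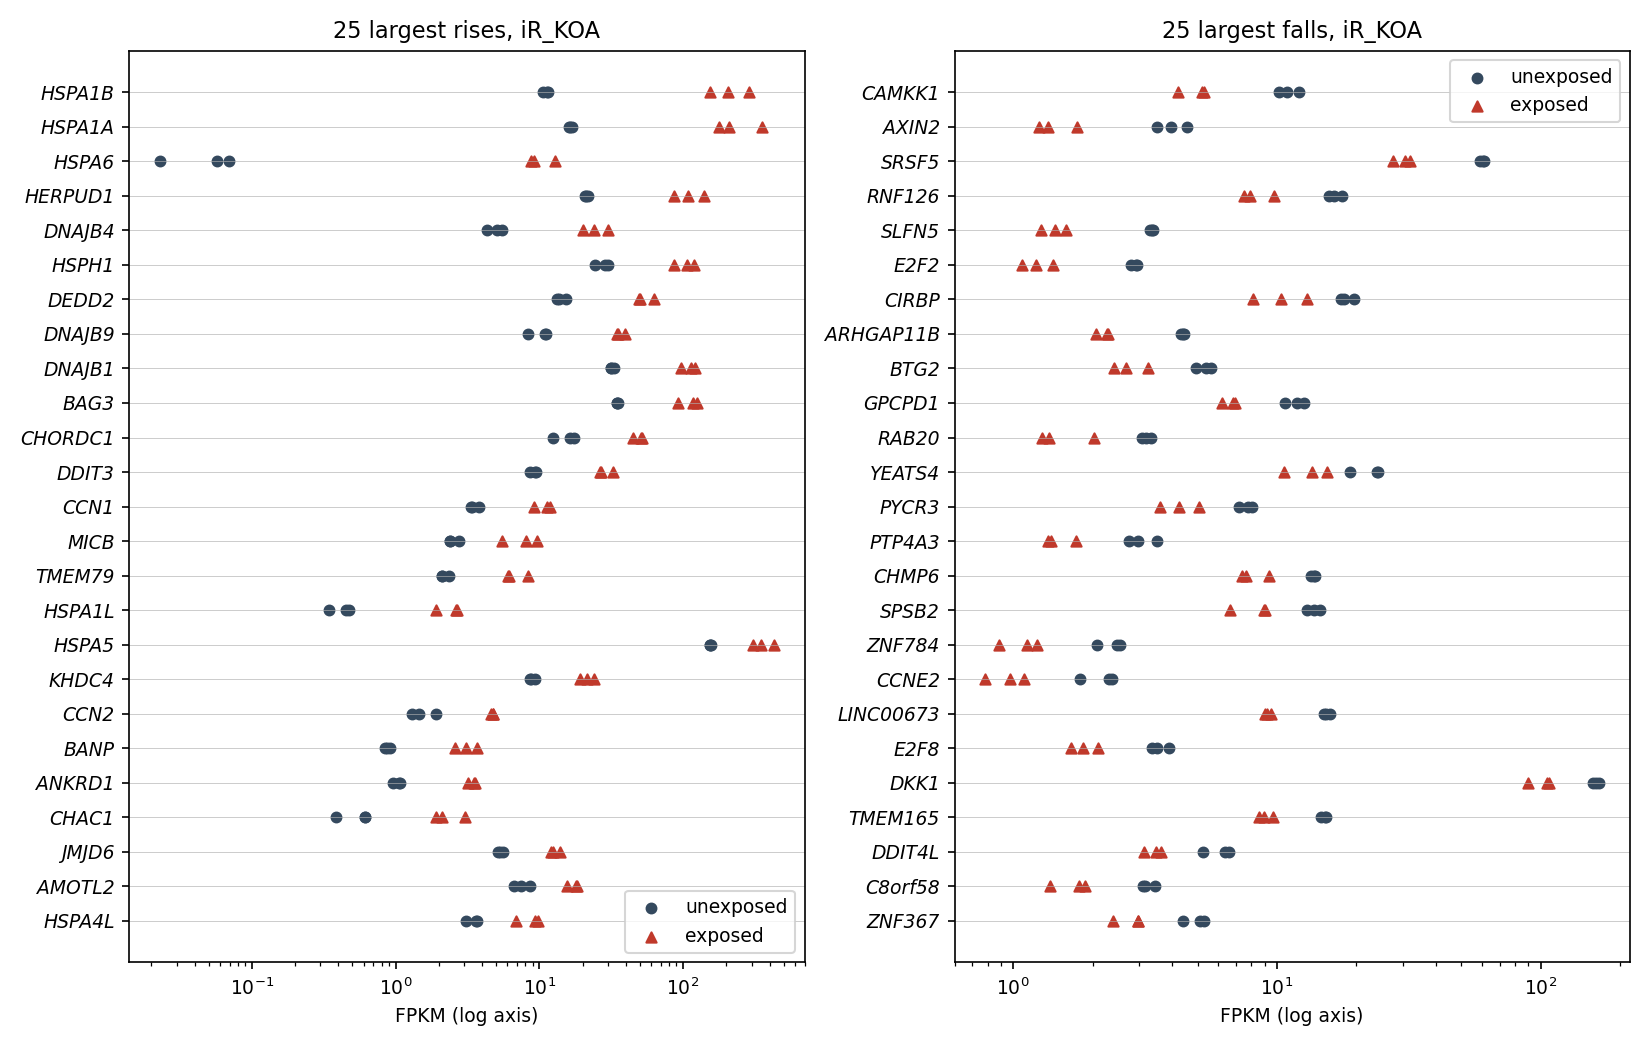
The 25 largest rises and 25 largest falls among genes that passed the test, reached a mean of 2 FPKM in either group and did not overlap between the groups, with FPKM (log axis) in each exposed library (triangles) and unexposed library (circles). HSPA1B, HSPA1A and HSPA6 are set apart at the top by exposed values far above the unexposed ones.

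The cytosolic HSP70 genes gave the largest differences. HSPA1B and HSPA1A encode the stress-inducible HSP70, and HSPA6 a further HSP70 that is nearly silent in unstressed cells. HSPA1B read 287, 204 and 155 FPKM in exposed libraries 1, 2 and 3 and 11.4, 10.6 and 11.4 FPKM in the unexposed ones, a ratio of means of 19.4 and a difference of 4.11 ± 0.16 (adjusted p = 1.58e-15). HSPA1A read 355, 210.3 and 178 FPKM against 16.3, 16.8 and 16.2 FPKM, a difference of 3.77 ± 0.19 (adjusted p = 1.54e-13). HSPA6 went from 0.0230, 0.0575 and 0.0693 FPKM without the field to 12.9, 9.24 and 8.81 FPKM with it, a difference of 3.41 ± 0.16 (adjusted p = 3.53e-14). In all 3 genes exposed library 1 was highest and library 3 lowest, and even the lowest exposed value lay many times above the highest unexposed one. HSPA1A and HSPA1B are nearly identical in sequence, so the share of reads given to each is uncertain. No fold is given for HSPA6, whose unexposed values rest on a few reads.

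The RefSeq promoters of 2 of the largest heat shock rises are shown because they hold the GAA repeat that heat shock factors bind. Each sequence is the 250 bases before the annotated start, 5′ to 3′ on the gene's strand in GRCh38.p14, with matches in capitals. The motif searched, on both strands, was GAA, 2 bases of any kind, TTC, 2 of any kind, GAA, or the same with GAA and TTC exchanged. HSPA6 spans chr1:161524290-161524539, plus strand, and CHORDC1 chr11:90223050-90223299, minus strand.
HSPA6: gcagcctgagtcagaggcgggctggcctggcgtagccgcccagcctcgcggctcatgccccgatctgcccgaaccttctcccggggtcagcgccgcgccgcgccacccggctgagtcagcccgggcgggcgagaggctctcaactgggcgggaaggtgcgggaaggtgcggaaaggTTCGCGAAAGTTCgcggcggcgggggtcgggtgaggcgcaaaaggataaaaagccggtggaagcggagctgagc
CHORDC1: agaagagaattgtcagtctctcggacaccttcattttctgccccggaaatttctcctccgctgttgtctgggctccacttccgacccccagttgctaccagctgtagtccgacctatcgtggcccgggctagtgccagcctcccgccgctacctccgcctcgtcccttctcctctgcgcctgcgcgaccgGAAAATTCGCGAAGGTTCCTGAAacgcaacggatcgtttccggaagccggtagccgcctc
HSPA6 held 1 match, from 74 to 62 bases before the start. CHORDC1 held 3 matches, all overlapping one another, between 60 and 38 bases before it. The motif was found in 120 of 27305 RefSeq promoters of this length (0.44%) and in 30 of the 9885 promoters matched to tested genes (0.304%). It was found in 5 of the 54 matched to genes of the 4 heat shock lists below: CHORDC1, DNAJB6, HSPA6, HSPA8 and SERPINH1, each of which rose. Of the 30 tested genes with the motif 13 rose, beside 1314 of all 9885 with a promoter. A match is a description of the letters only.

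Of 12 HSP70 and HSP110 genes, 9 rose and 1 fell, with a median difference of 0.88. HSPH1, an HSP110 that resets HSP70 by nucleotide exchange, read 119, 106 and 87.0 FPKM with the field and 30.2, 28.5 and 24.2 FPKM without (1.87 ± 0.11, adjusted p = 2.38e-12). HSPA4L, another HSP110, had a difference of 1.10 ± 0.10 (adjusted p = 9.09e-09), and HSPA1L, an HSP70 gene next to HSPA1A, one of 1.26 ± 0.10 (adjusted p = 6.86e-10). The abundant constitutive HSPA8, chosen after its values were seen, rose less in log2 terms, with 1006, 976 and 851 FPKM against 608, 594 and 587 FPKM (0.66 ± 0.05). The member that fell was HSPA14, a ribosome-associated HSP70, with 15.2, 15.8 and 16.3 FPKM against 21.0, 20.3 and 18.1 FPKM (−0.31 ± 0.07, adjusted p = 0.00128); it too was named after its values were seen. The summed FPKM of the list was 227%, 197% and 171% of the unexposed mean in exposed libraries 1, 2 and 3.

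Of 21 J-proteins, nucleotide exchange factors and small heat shock proteins, 12 rose and 2 fell (median 0.21). J-proteins, the HSP40 family, deliver clients to HSP70. DNAJB1 read 122, 113 and 97.1 FPKM in exposed libraries and 31.7, 31.8 and 32.9 FPKM in unexposed ones (1.75 ± 0.07, adjusted p = 1.58e-15). DNAJB4 read 24.1, 30.0 and 20.1 FPKM against 5.09, 5.47 and 4.34 FPKM (2.09 ± 0.10, adjusted p = 6.85e-14). BAG3, which couples HSP70 to small heat shock proteins and to selective autophagy, read 126, 117 and 91.5 FPKM against 35.2, 34.5 and 34.5 FPKM (1.64 ± 0.10, adjusted p = 5.62e-12). All 3 genes were separated between the groups, and in DNAJB4 exposed library 2, not library 1, was highest. DNAJA1 (1.06), HSPB8, the small heat shock protein that partners BAG3 (0.92), and DNAJB6 (0.74) also rose. BAG1 (−0.32) and HSPBP1 (−0.19), both nucleotide exchange factors of HSP70, fell; they were named after their values were seen, and 1 of the 2 fell with either other scaling, without exposed library 2 or without unexposed library 3.

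The HSP90 list, which holds HSP90, its helpers and the mitochondrial chaperonin genes HSPD1 and HSPE1, moved in the same direction: 10 of 15 rose and 1 fell (median 0.38). CHORDC1, an HSP90-binding protein, read 52.0, 50.7 and 44.7 FPKM with the field and 17.5, 16.3 and 12.5 FPKM without (1.62 ± 0.11, adjusted p = 5.34e-11). HSP90AA1, the stress-inducible cytosolic HSP90, read 846, 781 and 703 FPKM against 473, 451 and 398 FPKM (0.82 ± 0.07, adjusted p = 1.15e-08). The co-chaperones FKBP4 (0.77), PPID (0.76), AHSA1, which stimulates the ATPase of HSP90 (0.52), and STIP1, which bridges HSP70 and HSP90 (0.50), rose as well. FKBP5 fell (−0.25), and was named after its values were seen. In the TRiC chaperonin, the ring that folds actin and tubulin, 3 of 8 subunits rose and none fell: CCT4 (0.24), TCP1 (0.21) and CCT6A (0.19). With either other scaling 5 of the 8 rose.

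Among 15 heat shock factors and further targets, 5 rose and 1 fell (median 0.03). DEDD2, a death effector domain protein, read 62.6, 50.4 and 49.3 FPKM with the field and 13.3, 13.8 and 15.5 FPKM without (1.85 ± 0.09, adjusted p = 7.17e-14). The other rises were SERPINH1, the collagen chaperone HSP47 (0.76 ± 0.09, adjusted p = 1.09e-06), ZFAND2A, a proteasome-associated zinc finger protein (0.74), CACYBP (0.48) and MRPL18 (0.27). HSF2, a heat shock factor itself, fell by 0.25 (adjusted p = 0.0209), a call lost without exposed library 1, unexposed library 1 or unexposed library 2. The rises were not spread evenly over the exposed libraries. Library 1 was highest in 6 of the 9 HSP70 rises, in 10 of 12 for the J-protein list, in 9 of 10 for HSP90 and in 5 of 5 here.

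**Figure D3:**
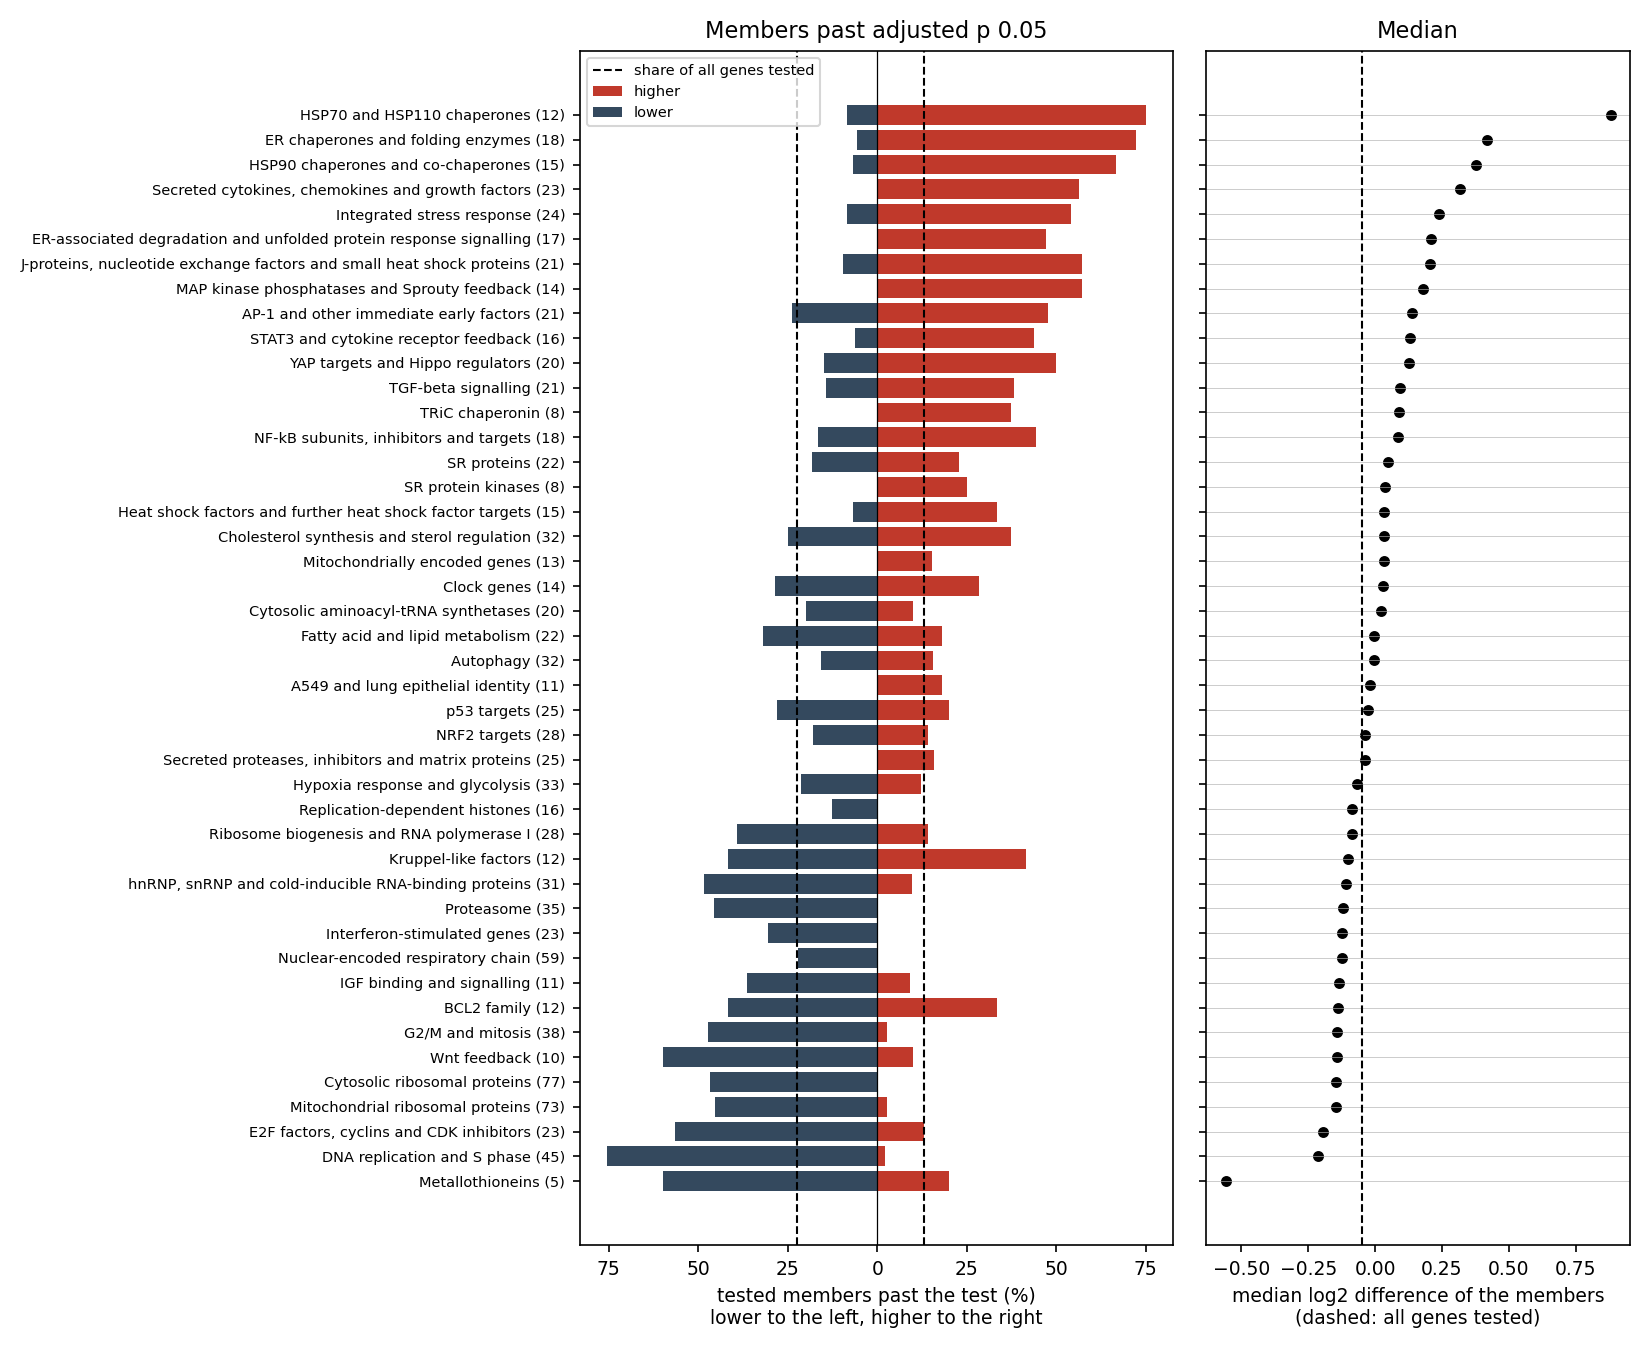
Share of tested members (%) that rose (right) or fell (left) in each gene list with at least 5 tested members, whose number is in parentheses, with dashed lines at the share among all genes tested, 13.1% higher and 22.3% lower, and the median log2 difference of each list in the second panel. The chaperone and ER lists extend to the right of the dashed line, and the DNA replication list, with 34 of 45 members lower, extends furthest to the left.

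Genes of the endoplasmic reticulum rose next to those of the heat shock lists. Of 18 ER chaperones and folding enzymes, 13 rose and 1 fell (median 0.42). HSPA5, which encodes the ER HSP70 called BiP, read 429, 346 and 305 FPKM in exposed libraries 1, 2 and 3 and 156, 153 and 155 FPKM in the unexposed ones (1.20 ± 0.11, adjusted p = 1.01e-08). DNAJB9, an ER J-protein, read 39.2, 35.1 and 34.8 FPKM against 11.1, 11.0 and 8.32 FPKM (1.76 ± 0.14, adjusted p = 6.27e-10). Both were separated between the groups and highest in exposed library 1. MANF, a secreted ER stress factor (0.92 ± 0.12, adjusted p = 3.3e-06), SDF2L1 (0.85), the J-protein DNAJB11 (0.77) and the ER HSP110 HYOU1 (0.77) rose. CDNF, the relative of MANF, fell (−0.33, adjusted p = 0.0414), a call lost with median-of-ratios scaling and without any of 5 of the 6 libraries in turn, and was named after its values were seen. Summed over the list, expression was 150%, 135% and 128% of the unexposed mean in exposed libraries 1, 2 and 3.

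The HSPA5 promoter is shown because it holds the ER stress element (CCAAT, 9 bases of any kind, CCACG), the site that ATF6 binds together with NF-Y. The 250 bases before the start span chr9:125241344-125241593, minus strand, in GRCh38.p14, with the match in capitals.
HSPA5: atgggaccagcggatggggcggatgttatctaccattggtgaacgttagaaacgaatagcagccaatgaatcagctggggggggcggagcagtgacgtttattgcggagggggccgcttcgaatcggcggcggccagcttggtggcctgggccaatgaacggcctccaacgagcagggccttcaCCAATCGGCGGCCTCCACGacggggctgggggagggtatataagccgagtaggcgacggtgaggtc
The match ran from 66 to 48 bases before the start. Searched on both strands, the element occurred in 22 of 27305 RefSeq promoters (0.0806%), in 14 of 9885 matched to tested genes (0.142%) and in 7 of 33 matched to the 2 ER lists. Of those 7, CALR (0.30), CANX (0.27), HSP90B1 (0.57), HSPA5 and XBP1 (0.80) rose. CRELD2 (0.29, adjusted p = 0.0669) and ERO1B (0.15, adjusted p = 0.142) did not pass the test. Of the 14 tested genes with the element 8 rose, beside 1314 of all 9885 with a promoter.

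Of 17 genes of ER-associated degradation and unfolded protein response signalling, 8 rose and none fell (median 0.21). HERPUD1, which helps assemble the ER degradation complex, had the fourth largest difference of all genes: 139, 108 and 86.5 FPKM with the field and 21.1, 20.7 and 21.8 FPKM without (2.31 ± 0.15, adjusted p = 3.79e-11). XBP1, the transcription factor spliced by IRE1, read 58.4, 50.4 and 45.7 FPKM against 29.5, 29.8 and 27.4 FPKM (0.80 ± 0.09, adjusted p = 1.43e-07). EIF2AK3, which encodes the sensor PERK, read 15.4, 14.9 and 13.0 FPKM against 7.47, 7.66 and 6.86 FPKM (0.89 ± 0.07, adjusted p = 8.23e-10). The groups did not overlap in any of these genes. SYVN1, the ubiquitin ligase HRD1 (0.78), its partner SEL1L (0.41) and the mannosidase-like EDEM3 (0.53) also rose.

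In the integrated stress response, 13 of 24 genes rose and 2 fell (median 0.24). DDIT3, encoding the transcription factor CHOP, read 32.8, 26.3 and 27.1 FPKM in the exposed libraries and 9.28, 8.69 and 9.51 FPKM in the unexposed ones (1.54 ± 0.11, adjusted p = 2.46e-10). CHAC1, which breaks down glutathione, read 3.04, 2.12 and 1.91 FPKM against 0.383, 0.610 and 0.608 FPKM (1.12 ± 0.11, adjusted p = 6.37e-08). Exposed library 1 was highest in both, and in 12 of the 13 rises of this list. CEBPB (0.74), SESN2, an inhibitor of mTORC1 (0.63), ATF3 (0.53) and TRIB3, a pseudokinase that restrains ATF4 (0.47), rose. The cystine transporter SLC7A11 fell by 0.33 (adjusted p = 0.0101), a call lost without exposed library 1, and ATF5, named after its values were seen, fell by 0.32. The cytosolic aminoacyl-tRNA synthetases, several of which are known ATF4 targets, gave 2 rises (AARS1, 0.22, and TARS1, 0.11) and 4 falls among 20, with a median of 0.02. That is 10.0% and 20.0%, against 13.1% and 22.3% of all genes. With either other scaling there were 4 rises and 1 fall, and without exposed library 1 or 2 there were 1 and 2.

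CHAC1 is shown as a promoter with the amino acid response element, the composite site of ATF4 with C/EBP proteins. It spans chr15:40953221-40953470, plus strand, in GRCh38.p14, and capitals mark the match to TGATGNAAT or TGATGNAAC on either strand.
CHAC1: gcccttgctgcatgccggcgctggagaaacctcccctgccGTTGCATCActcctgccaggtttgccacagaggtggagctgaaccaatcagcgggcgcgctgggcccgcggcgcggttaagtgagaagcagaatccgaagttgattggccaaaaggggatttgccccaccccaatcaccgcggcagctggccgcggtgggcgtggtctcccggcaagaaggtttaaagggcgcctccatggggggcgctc
The match lay from 210 to 202 bases before the start, on the opposite strand. The element was found in 428 of 27305 RefSeq promoters (1.57%) and in 73 of 9885 matched to tested genes (0.739%). Of those 73 genes 14 rose, beside 1314 of all 9885. In the integrated stress response list 2 of 19 promoters held it, those of CHAC1 and PPP1R15B (0.38), both of which rose. Of the other genes named here, HERPUD1 (2.31) and AARS1 (0.22), which rose, and NRIP1 (−0.45) and MRPL55 (−0.35), which fell, held a match. Among the 23 promoters matched to the 25 largest rises, the heat shock element was found in 2, the ER stress element in 1 and the amino acid response element in 2. None of the 3 was found in the 15 promoters matched among the 25 largest falls. With shares of 0.304%, 0.142% and 0.739% among tested genes, 15 promoters are too few for that absence to mean anything.

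Immediate early genes, whose transcription needs no new protein, moved both ways. Of 21 tested, 10 rose and 5 fell (median 0.14). JUN, an AP-1 subunit, read 5.36, 4.43 and 4.42 FPKM with the field and 2.69, 2.14 and 2.91 FPKM without (0.68 ± 0.09, adjusted p = 2.27e-06). MYC read 29.4, 31.8 and 26.8 FPKM against 18.6, 18.1 and 19.3 FPKM (0.62 ± 0.06, adjusted p = 1.85e-08). BTG2, an antiproliferative gene, fell from 4.93, 5.41 and 5.61 FPKM to 2.68, 2.42 and 3.25 FPKM (−0.74 ± 0.11, adjusted p = 6.94e-06). The orphan nuclear receptor NR4A1 fell too (−0.54), while BHLHE40 (0.52) and GADD45B (0.52) rose. Without unexposed library 1 the falls numbered 3.

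MAP kinase phosphatases and Sprouty proteins switch off growth factor signalling and are induced by it. Of 14, 8 rose and none fell (median 0.18). DUSP1 read 119, 114 and 116 FPKM in the exposed libraries and 66.0, 68.1 and 70.7 FPKM in the unexposed ones (0.76 ± 0.04, adjusted p = 8.93e-13), and DUSP5, specific for ERK, 23.3, 23.6 and 22.3 FPKM against 12.8, 13.0 and 14.2 FPKM (0.75 ± 0.06, adjusted p = 3.64e-10). The 3 exposed libraries lay close together in both genes. SPRED3 (0.62), DUSP16 (0.39) and DUSP4 (0.28) rose. In a fit on the 6 libraries alone 5 of the list rose.

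YAP and TAZ are transcriptional coactivators held in check by the Hippo kinases, and CCN1, CCN2 and ANKRD1 are their best known targets. Of 20 targets and regulators, 10 rose and 3 fell (median 0.13). CCN1 read 9.20, 11.4 and 11.9 FPKM in exposed libraries 1, 2 and 3 and 3.34, 3.39 and 3.82 FPKM in the unexposed ones (1.38 ± 0.09, adjusted p = 6.09e-11). CCN2 read 4.73, 4.59 and 4.75 FPKM against 1.46, 1.30 and 1.91 FPKM (1.16 ± 0.07, adjusted p = 1.57e-11), and ANKRD1 3.19, 3.54 and 3.54 FPKM against 1.06, 0.953 and 1.08 FPKM (1.12 ± 0.08, adjusted p = 3.29e-10). In contrast to the chaperones, the highest exposed value was in library 1 for 2, in library 2 for 4 and in library 3 for 4 of the 10 rises. AMOTL2, a feedback inhibitor of YAP (1.10 ± 0.08, adjusted p = 6.09e-11), AJUBA, a LIM protein that binds LATS kinases (1.09 ± 0.06, adjusted p = 1.14e-12), and the kinase NUAK2 (0.73) rose. The falls were WWTR1, the gene of TAZ (−0.43), TEAD2 (−0.23) and TEAD3 (−0.27), all named after their values were seen.

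The Krüppel-like factors were evenly split, with 5 of 12 higher and 5 lower (median −0.10). KLF10, a TGF-beta-inducible repressor, read 30.1, 36.3 and 30.3 FPKM with the field and 17.9, 18.3 and 17.5 FPKM without (0.81 ± 0.05, adjusted p = 2.71e-11). KLF2 (0.51) and KLF6 (0.36) rose, and KLF16 (−0.64), KLF9 (−0.61) and KLF11 (−0.54) fell. Without unexposed library 2 or 3, 3 of the family rose. In TGF-beta and BMP signalling 8 of 21 genes rose and 3 fell (median 0.09). ID1, a BMP target that blocks basic helix-loop-helix factors, read 99.0, 73.1 and 81.7 FPKM against 46.0, 43.7 and 51.3 FPKM (0.83 ± 0.08, adjusted p = 3.1e-08). Its relatives ID2 (0.49) and ID3 (0.49) and the inhibitory SMAD7 (0.63) and SMAD6 (0.38) rose, while the receptor TGFBR1 fell (−0.41). Wnt feedback genes went the other way, with 6 of 10 lower and 1 higher (median −0.14). AXIN2, a scaffold of the beta-catenin destruction complex and a standard readout of Wnt signalling, fell from 3.95, 3.50 and 4.54 FPKM to 1.36, 1.26 and 1.75 FPKM (−1.03 ± 0.07, adjusted p = 7.12e-11), and DKK1, a secreted Wnt antagonist, from 162, 167 and 159 FPKM to 89.6, 106 and 108 FPKM (−0.68 ± 0.06, adjusted p = 6.26e-09). The 1 rise, LGR4 (0.16, adjusted p = 0.0497), lay at the threshold and was lost without exposed library 2, unexposed library 1 or unexposed library 3.

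Many transcripts for secreted signals rose. Of 36 cytokine, chemokine and growth factor genes listed, 23 passed the filter on low values, and 13 of these rose and none fell (median 0.32). LIF, a cytokine of the IL-6 family, read 32.1, 28.1 and 31.7 FPKM in the exposed libraries and 14.4, 14.4 and 17.1 FPKM in the unexposed ones (0.96 ± 0.06, adjusted p = 1.72e-11). CXCL8, which attracts neutrophils, read 2.12, 2.56 and 2.56 FPKM against 1.45, 1.08 and 0.925 FPKM (0.67 ± 0.11, adjusted p = 3.08e-05). Neither gene overlapped between the groups. BMP4 (0.61), FGF2 (0.57), the EGF receptor ligand EREG (0.52) and CSF1 (0.48) rose. Of 25 secreted proteases, inhibitors and matrix proteins, 4 rose and none fell (16.0% higher, against 13.1% of all genes). THBS1 (0.31), the protease PLAU (0.27) and LAMB1 (0.15) were among the rises.

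Among NF-kB subunits, inhibitors and targets, 8 of 18 rose and 3 fell (median 0.09), and 5 rose without exposed library 1, unexposed library 2 or unexposed library 3. TRAF2 (0.63) and BIRC3 (0.40), which act together at TNF receptors, led the rises. In the STAT3 list 7 of 16 rose and 1 fell (median 0.13), and 4 rose without exposed library 2. The fall was IL6R, the IL-6 receptor (2.88, 2.90 and 3.30 FPKM against 5.08, 4.91 and 5.72 FPKM, −0.63 ± 0.06, adjusted p = 1.64e-08), while IL6ST, the signalling chain it shares with the LIF receptor, rose (0.40). Of 11 genes of IGF binding and signalling, 1 rose and 4 fell: IGF2R (0.10) against IGFBP1 (−0.42), IGFBP3 (−0.27), IGFBP6 (−0.26) and IGFBP4 (−0.16). Without exposed library 2, 2 of the list fell, and the IGF2R call was lost without any of 5 of the 6 libraries in turn. No interferon-stimulated gene among 23 rose and 7 fell (30.4% lower, against 22.3% of all genes). Among the falls were SLFN5 (1.27, 1.44 and 1.58 FPKM against 3.40, 3.29 and 3.35 FPKM, −0.84 ± 0.08, adjusted p = 2.34e-08), the ubiquitin-like ISG15 (−0.49) and IFIT1 (−0.39). IFIT3 (−0.29) lost its call without exposed library 1 or unexposed library 3.

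Because RSRP1 shares its arginine- and serine-rich character with splicing factors, SR proteins were examined. Of 22, 5 rose and 4 fell (median 0.05). That is 22.7% and 18.2%, against 13.1% and 22.3% of all genes. SRSF5 had the third largest fall of all genes, with 30.7, 27.5 and 32.0 FPKM in exposed libraries 1, 2 and 3 and 59.1, 60.7 and 61.2 FPKM in the unexposed ones (−0.98 ± 0.04, adjusted p = 3.4e-14). SRSF6 read 30.8, 32.5 and 32.9 FPKM against 45.0, 42.2 and 40.6 FPKM (−0.40 ± 0.05, adjusted p = 6.34e-07), and SRSF2 85.5, 80.2 and 92.8 FPKM against 112, 112 and 109 FPKM (−0.36 ± 0.05, adjusted p = 1.22e-06). All 3 were separated between the groups. TRA2A (0.46), LUC7L (0.33) and SRSF7 (0.31) rose. Of the 8 kinases that phosphorylate SR proteins, CLK4 (0.30, lost without unexposed library 3) and CLK3 (0.26) rose, and CLK1 did not pass, at 18.0, 18.5 and 19.1 FPKM against 20.3, 20.5 and 19.4 FPKM (−0.11 ± 0.07, adjusted p = 0.265).

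Of 31 hnRNP, snRNP and cold-inducible RNA-binding proteins, 3 rose and 15 fell (median −0.11), and 5 rose with median-of-ratios scaling. CIRBP, the cold-inducible RNA-binding protein that is known to fall when cells are warmed, read 10.4, 8.13 and 13.1 FPKM with the field and 17.9, 17.4 and 19.6 FPKM without (−0.77 ± 0.10, adjusted p = 1.27e-06). Its relative RBM3, named after its values were seen, fell by 0.25 (adjusted p = 0.000619). HNRNPDL (−0.56 ± 0.05, adjusted p = 1.96e-08) and the helicase DDX5 (−0.30) fell. Exposed library 2 was lowest in 11 of the 15 falls, and 9 fell without it. The labels give no culture temperature during exposure.

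Most genes listed for DNA replication fell. Of 45 genes of DNA replication and S phase, 34 fell and 1 rose, with a median of −0.21, against −0.05 for all genes. RRM2, the regulated subunit of ribonucleotide reductase, read 45.1, 51.8 and 55.2 FPKM in the exposed libraries and 71.9, 75.6 and 68.3 FPKM in the unexposed ones (−0.50 ± 0.06, adjusted p = 3.35e-07). ORC1, of the origin recognition complex, read 5.35, 5.96 and 6.04 FPKM against 7.70, 8.99 and 8.77 FPKM (−0.48 ± 0.07, adjusted p = 9.27e-06). Both genes were separated between the groups, as were 36 of the 45 in the lower direction, against 25.5% of all genes. The histone chaperone subunit CHAF1B (−0.43), the polymerase subunit POLD1 (−0.42), the licensing factor CDT1 (−0.41) and the primase PRIM1 (−0.40) fell. The rise was the licensing factor CDC6 (19.0, 20.0 and 17.8 FPKM against 16.8, 17.1 and 17.0 FPKM, 0.15 ± 0.04, adjusted p = 0.00821), named after its values were seen and not past the test without exposed library 2. The list's summed FPKM was 80.2%, 81.8% and 87.1% of the unexposed mean in exposed libraries 1, 2 and 3. In a fit on the 6 libraries alone 22 of the list fell. Of 36 replication-dependent histone genes listed, 16 could be tested, and 2 of these fell and none rose (12.5% lower, against 22.3% of all genes). H2AC6 was among the falls (−0.39, lost without exposed library 3 or unexposed library 2). The summed FPKM of the histone list was nevertheless 85.2%, 77.8% and 85.0% of the unexposed mean in exposed libraries 1, 2 and 3. The RNA was oligo(dT)-selected, so histone RNA without a poly(A) tail would be under-represented.

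E2F factors regulate DNA replication genes, some as activators and others, such as E2F8, as repressors. Cyclins and CDK inhibitors govern E2F. Of 23, 3 rose and 13 fell (median −0.19). E2F2 fell from 2.80, 2.93 and 2.93 FPKM to 1.22, 1.08 and 1.41 FPKM (−0.80 ± 0.07, adjusted p = 1.29e-08), E2F8 from 3.36, 3.51 and 3.90 to 1.65, 1.83 and 2.10 FPKM (−0.68 ± 0.07, adjusted p = 1.06e-07), and cyclin E2, CCNE2, from 2.32, 2.37 and 1.79 to 0.783, 0.974 and 1.10 FPKM (−0.69 ± 0.10, adjusted p = 7.57e-06). CDKN1A, the CDK inhibitor p21, rose from 69.5, 70.3 and 71.5 FPKM to 99.2, 95.2 and 102 FPKM (0.48 ± 0.05, adjusted p = 3.92e-08), as did cyclin D1, CCND1 (0.39), and its kinase CDK6 (0.35), the last named after its values were seen. With the 6 libraries alone, or a filter at 5 FPKM, 6 of the list fell. Of 38 genes of G2 and mitosis, 1 rose and 18 fell (median −0.14). The kinesins KIF20B (−0.55 ± 0.15, adjusted p = 0.00529), KIF11 (−0.38) and KIF2C (−0.32) and the cyclin CCNF (−0.38) were among the falls, and CKS2, named after its values were seen, rose (0.30). Exposed library 1 was lowest in 15 of the 18 falls.

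Of 25 p53 targets, 5 rose and 7 fell (median −0.03), and 4 fell with either other scaling or in the unfiltered table; the death receptor TNFRSF10B (0.35) and the kinase PLK2 (0.28) rose next to CDKN1A. The BCL2 family had 4 rises and 5 falls among 12. MCL1, which protects from apoptosis, read 65.5, 65.6 and 64.5 FPKM with the field and 45.5, 47.7 and 43.0 FPKM without (0.51 ± 0.05, adjusted p = 9.78e-09), and BCL2L1, also protective, rose by 0.27. BMF and BCL2L11, both BH3-only activators of apoptosis, fell: BMF read 0.105, 0.139 and 0.209 FPKM against 1.06, 0.856 and 0.904 FPKM (−0.75 ± 0.06, adjusted p = 4.39e-10) and BCL2L11 7.02, 6.78 and 6.85 FPKM against 9.16, 9.72 and 9.13 FPKM (−0.39 ± 0.05, adjusted p = 4.96e-07). With either other scaling, or without exposed library 2 or unexposed library 3, 3 of the family fell. PMAIP1, a further BH3-only gene, rose (0.26).

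Of 32 genes of cholesterol synthesis and sterol regulation, 12 rose and 8 fell (median 0.03), and 4 fell without exposed library 2. The shares were 37.5% and 25.0%, against 13.1% and 22.3% of all genes. The SREBP2 target INSIG1, which holds SREBPs in the ER, read 76.5, 81.9 and 76.3 FPKM in exposed libraries and 53.1, 54.1 and 51.4 FPKM in unexposed ones (0.56 ± 0.04, adjusted p = 4.15e-10). The sterol carrier STARD4 (0.64) and the synthesis enzyme HSD17B7 (0.62) rose. ABCA1, which exports cholesterol, fell from 3.79, 3.86 and 3.27 FPKM to 1.64, 2.10 and 2.18 FPKM (−0.64 ± 0.07, adjusted p = 2.85e-07), and SREBF1 fell as well (−0.46). Fatty acid and lipid genes gave 4 rises and 7 falls among 22 (18.2% and 31.8%, against 13.1% and 22.3% of all genes). GPCPD1, a glycerophosphocholine phosphodiesterase, fell from 11.9, 12.7 and 10.7 FPKM to 6.18, 6.83 and 6.95 FPKM (−0.74 ± 0.07, adjusted p = 9.33e-09). DGAT2, which makes triglyceride, fell from 0.935, 0.924 and 0.502 FPKM to 0.165, 0.210 and 0.197 FPKM (−0.58), and LPIN2 fell too (−0.34), while LPIN1 rose (0.37).

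Among 28 NRF2 targets and regulators, 4 rose and 5 fell (median −0.04). That is 14.3% and 17.9%, near or under the 13.1% and 22.3% of all genes. NFE2L2, the gene of NRF2, read 44.7, 49.9 and 44.0 FPKM with the field and 32.1, 30.4 and 30.9 FPKM without (0.55 ± 0.04, adjusted p = 1.12e-09), and HMOX1, heme oxygenase 1, 561, 477 and 470.4 FPKM against 386, 385 and 397 FPKM (0.36 ± 0.07, adjusted p = 0.000278). KEAP1, the adaptor that marks NRF2 for degradation, fell by 0.26. With either other scaling, or without exposed library 1 or 2, 3 of the list fell. Of 33 hypoxia and glycolysis genes 4 rose and 7 fell, 12.1% and 21.2%, again near the shares of all genes. VEGFA (0.40) and the prolyl hydroxylase P4HA1 (0.57) were higher and PFKFB3 (−0.39) lower. With either other scaling, or without exposed library 1, exposed library 2 or unexposed library 2, 4 fell. Of 11 metallothioneins and related names, 5 could be tested: the metal sensor MTF1 rose (0.31), and MT1X (−0.57), MT2A (−0.56) and MT1F (−0.64) fell, each lowest in exposed library 2, MT1F losing its call without that library or unexposed library 2. Clock genes split 4 to 4 among 14 (28.6% each way), with ARNTL (0.38) and NFIL3 (0.37) higher and DBP (−0.37) and TEF (−0.34) lower. Autophagy genes split 5 to 5 among 32, with ATG5 higher (0.33) and ATG2A lower (−0.50). That is 15.6% each way, against 13.1% higher and 22.3% lower among all genes. Of the autophagy genes 3 fell with either other scaling, in the unfiltered table, or without exposed library 1, unexposed library 1 or unexposed library 2.

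The protein and energy machinery showed small falls that moved with exposed library 2. Among all genes tested 22.3% fell, and the shares below are to be set beside that. Of 77 cytosolic ribosomal protein genes, 36 fell (46.8%) and none rose (median −0.15), and exposed library 2 was lowest in all 36. RPS19 read 351, 239.5 and 348 FPKM in exposed libraries 1, 2 and 3 and 375, 365 and 381 FPKM in the unexposed ones (−0.28 ± 0.09, adjusted p = 0.0172). Summed over the list, expression was 97.2%, 79.1% and 96.3% of the unexposed mean. Without exposed library 2, 1 gene of the list fell, 12 fell with median-of-ratios scaling, and without exposed library 1, 60 did. Leaving out unexposed library 1, 2 or 3 gave 22, 23 and 12 falls. Nuclear-encoded respiratory chain genes gave 13 falls among 59 and no rise. That is 22.0% lower, near the share of all genes. Exposed library 2 was lowest in 12 of the 13, and 3 genes fell without that library. There were 28 falls without exposed library 1, 30 without exposed library 3 and 7 without unexposed library 3 or with median-of-ratios scaling. Of 35 proteasome genes 16 fell (45.7%) and none rose. Without exposed library 2 there were 6 falls, and with median-of-ratios scaling 9. PSMD7, a regulatory subunit, differed little among exposed libraries (71.7, 73.7 and 73.8 FPKM against 84.4, 83.9 and 81.7 FPKM, −0.19 ± 0.03, adjusted p = 0.000188). Of 73 mitochondrial ribosomal proteins 33 fell (45.2%) and 2 rose, and 16 fell without exposed library 2. Most of these falls were lost in a fit on the 6 libraries alone. There 1 cytosolic ribosomal protein gene, 1 respiratory chain gene, 2 proteasome genes and 11 mitochondrial ribosomal protein genes fell.

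The mitochondrially encoded genes, by contrast, gave 2 rises among 13 and no fall (15.4% higher, against 13.1% of all genes). ND5, a subunit of complex I, read 2171, 2673 and 2248 FPKM with the field and 1923, 1918 and 1925 FPKM without (0.29 ± 0.07, adjusted p = 0.00138). ND4, another subunit, read 8611, 9829 and 8239.6 FPKM against 7832, 7758 and 7889.5 FPKM (0.18 ± 0.06, adjusted p = 0.0175), and lost its call without exposed library 2 and under quantile normalization, where 1 gene rose and 2 fell. Median-of-ratios scaling, or leaving out exposed library 3, gave 4 rises. Library 2 was highest in both. The part of the mitochondrial share in the falls of nuclear-encoded genes was not tested. Ribosome biogenesis had 4 rises and 11 falls among 28 (14.3% and 39.3%, against 13.1% and 22.3% of all genes). NOP56 of the box C/D snoRNP was lower (−0.29) and the RNA polymerase I subunit POLR1B higher (0.21). With quantile normalization 7 fell.

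**Figure D4:**
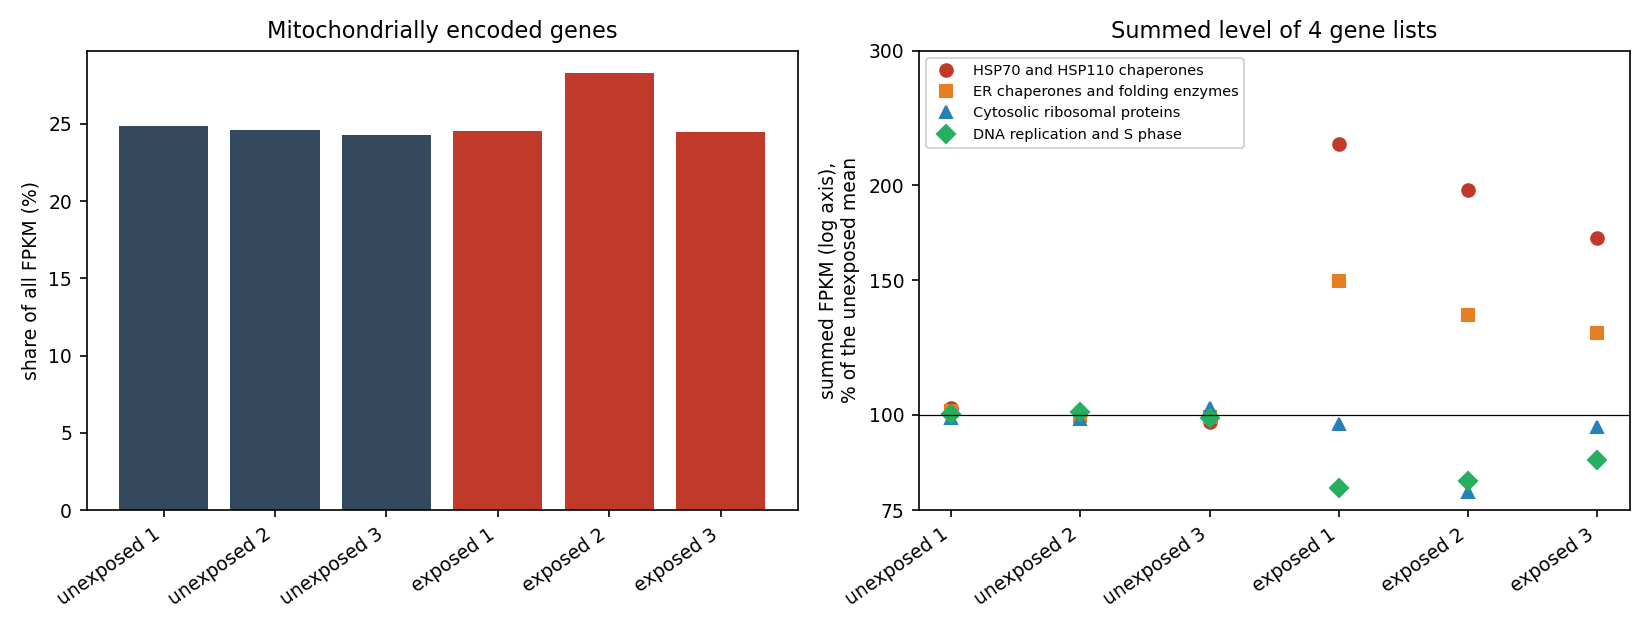
Left, the share of FPKM from mitochondrially encoded genes in each of the 6 libraries (bars from 0, in percent); right, the summed FPKM of 4 gene lists in each library as a percent of the unexposed mean (log axis), for the same 6 libraries. Exposed library 2 has the highest mitochondrial share, 28.3%, and the lowest ribosomal protein sum, 79.1%, while the exposed HSP70 sums lie between 171% and 227% and the exposed DNA replication sums between 80.2% and 87.1%.

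Further genes that belong to no list stood among the largest changes. KHDC4, an RNA-binding splicing protein, read 24.1, 21.5 and 19.1 FPKM in the exposed libraries and 9.35, 8.77 and 8.56 FPKM in the unexposed ones (1.18 ± 0.08, adjusted p = 3.79e-11), and JMJD6, a lysyl hydroxylase of splicing factors, 14.0, 12.4 and 12.1 FPKM against 5.20, 5.37 and 5.57 FPKM (1.12 ± 0.07, adjusted p = 1.57e-11). MICB, a stress ligand of the natural killer cell receptor NKG2D, rose from 2.39, 2.40 and 2.75 FPKM to 9.65, 8.06 and 5.52 FPKM (1.29 ± 0.14, adjusted p = 1.48e-07). TMEM79 (1.29) and BANP (1.13) rose. CAMKK1, a calcium- and calmodulin-dependent kinase kinase, had the largest fall, from 10.9, 10.2 and 12.1 FPKM to 5.20, 4.22 and 5.30 FPKM (−1.03 ± 0.07, adjusted p = 8.4e-11). RNF126, a ubiquitin ligase for mislocalized proteins, fell from 15.7, 16.5 and 17.7 FPKM to 7.47, 7.93 and 9.75 FPKM (−0.92 ± 0.11, adjusted p = 1.18e-06), and the long non-coding LINC00673 from 15.1, 15.4 and 15.9 FPKM to 8.97, 9.15 and 9.49 FPKM (−0.69 ± 0.04, adjusted p = 6.04e-12). Besides GPCPD1, the remaining 12 of the 25 largest falls, ARHGAP11B, RAB20, YEATS4, PYCR3, PTP4A3, CHMP6, SPSB2, ZNF784, TMEM165, DDIT4L, C8orf58 and ZNF367, ranged from −0.75 to −0.65. ARHGAP11B has near-identical relatives, so its reads are uncertain.

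Markers of other cell types gave few values to set beside these. Of 10 fibroblast markers 3 could be tested and ACTA2, smooth muscle actin, rose (0.34 ± 0.07, adjusted p = 0.000504); the list summed to 9.15 to 11.0 FPKM in exposed and 7.44 to 8.01 FPKM in unexposed libraries, most of it ACTA2. Of 8 endothelial markers CDH5 alone could be tested and fell (−0.23), at a sum of 0.318 to 0.394 FPKM against 0.526 to 0.645 FPKM, with CLDN5 and EMCN listed at 0. Neither of the 2 tested leukocyte markers, CD68 and CD14, passed, and the list summed to 42.1 to 45.6 FPKM against 41.4 to 46.8 FPKM, nearly all of it from these; PTPRC stayed at or below 0.0042 FPKM. Of 19 genes listed for A549 and lung epithelial identity, 11 could be tested. Of these, CLDN1 (0.52) and NAPSA (0.35) rose and none fell.

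The exposure difference in iR_KOA was then set against that in the other backgrounds, each with its own unexposed libraries. Exposure changed 41.5% of genes in KOA, 45.1% in iR_KOA_D3, 28.6% in iR_WTA and 41.8% in iR_WTA_D3. Of the 4272 genes changed in iR_KOA, 2976 changed in the same direction in KOA (69.7% of the iR_KOA genes and 59.3% of the KOA genes), 3010 in iR_KOA_D3 (70.5% and 55.2%), 2414 in iR_WTA (56.5% and 69.7%) and 2943 in iR_WTA_D3 (68.9% and 58.2%). Opposite directions were found for 37, 28, 9 and 29 genes. In all 5 backgrounds 1674 genes changed the same way, 723 up and 951 down, while 471 passed the test in iR_KOA and in none of the others. Across the 12086 genes, which are not independent replicates, Pearson's r with the differences of iR_KOA was 0.777 for KOA, 0.776 for iR_KOA_D3, 0.781 for iR_WTA and 0.725 for iR_WTA_D3. The difference between 2 backgrounds was tested for 3 of them.

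Against iR_WTA, the background of the same name with RSRP1 intact, the exposure effect differed in 65 of 12086 genes (0.538%): it was higher in iR_KOA in 33 (0.273%) and lower in 32 (0.265%). None of the heat shock, ER or integrated stress response lists had a member among them. With 0.538% of all genes passing, these lists hold too few genes for that absence to mean anything. CDC42EP2, an effector of the CDC42 GTPase that shapes the actin cytoskeleton, read 19.3, 18.1 and 18.0 FPKM in exposed and 9.00, 8.11 and 8.63 FPKM in unexposed iR_KOA libraries, a difference of 1.02 ± 0.07, against 0.16 in iR_WTA (from 3.98 ± 0.29 to 4.54 ± 0.13 FPKM, mean ± SD, n = 3). The gap was 0.87 ± 0.09 (adjusted p = 6.83e-06). In the YAP list 4 of 20 genes had a larger effect in iR_KOA and none a smaller one: AMOTL2 (1.10 against 0.45, gap 0.65 ± 0.11, adjusted p = 0.00228), CCN2 (1.16 against 0.68, gap 0.48 ± 0.10, adjusted p = 0.0283), AJUBA (gap 0.46) and TGFB2 (gap 0.34, named after its values were seen). The CCN2 call was lost with a pseudocount of 0.1, in the unfiltered table, with limma-voom and without any of 10 of the 12 libraries in turn. CXCL1, a neutrophil chemokine, had 0.41 against −0.13 (gap 0.54 ± 0.11, adjusted p = 0.0134, lost without exposed library 1 of iR_WTA).

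Other genes had a lower effect in iR_KOA than in iR_WTA. RND1, which loosens the actin cytoskeleton, read 2.84, 2.49 and 2.35 FPKM against 3.24, 2.80 and 3.31 FPKM in iR_KOA (−0.21, not past the test), and 0.47 was found in iR_WTA (from 3.77 ± 0.48 to 5.65 ± 0.97 FPKM, mean ± SD, n = 3; gap −0.68 ± 0.13, adjusted p = 0.011). RASSF10 fell in iR_KOA, from 4.05, 4.49 and 4.67 FPKM to 3.23, 2.06 and 2.75 FPKM, and had a difference of 0.10 in iR_WTA (gap −0.67 ± 0.13, adjusted p = 0.0117). UBALD2 differed by −0.33 against 0.28 (gap −0.61 ± 0.12, adjusted p = 0.00906). PNPLA3, a lipid droplet protein, and RRAD, a small GTPase, were nearly silent in iR_KOA, at 0.14 to 0.31 FPKM and at most 0.0553 FPKM, and their gaps of −0.59 and 0.62 stood beside differences of 0.53 and −0.67 in iR_WTA. Both calls were lost with a pseudocount of 0.1 and with limma-voom. With the 4 groups alone the calls of AMOTL2, CCN2, RND1, RASSF10 and PNPLA3 were lost. Immediate early genes had 3 lower effects among 21, in NR4A1 (−0.41), NR4A2 (−0.58, named after its values were seen) and BHLHE40 (−0.56).

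**Figure D5:**
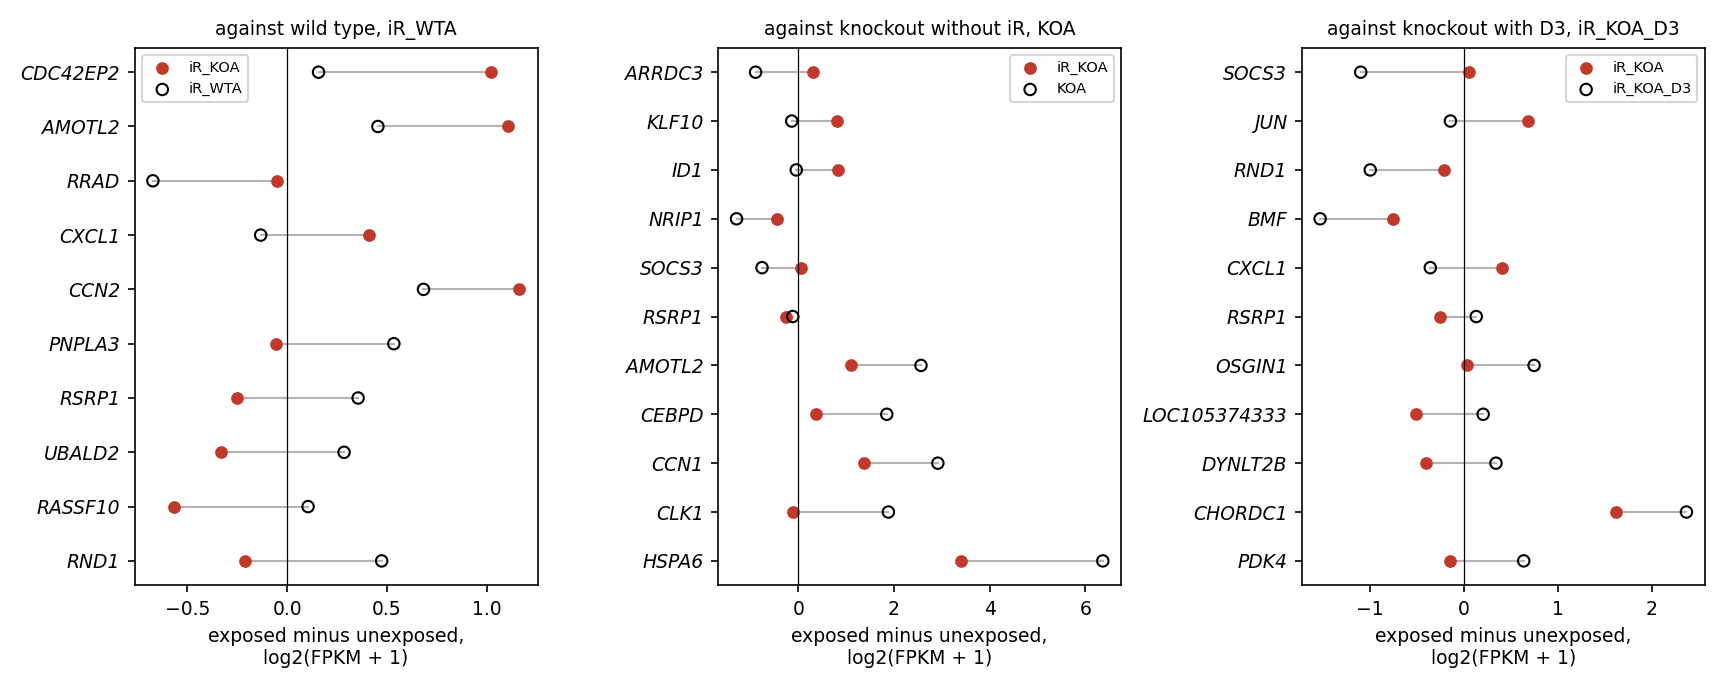
Exposure difference (log2(FPKM + 1), exposed minus unexposed) in iR_KOA (filled) and in the other background (open) for RSRP1 and the genes with the largest gaps, in a panel each for iR_WTA, KOA and iR_KOA_D3. The widest distance is that of HSPA6 in the KOA panel, 3.41 in iR_KOA against 6.37 in KOA.

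Against KOA, the other RSRP1 KO background without D3 in its name, the effect differed in 614 genes (5.08%), 201 higher (1.66%) and 413 lower (3.42%) in iR_KOA. With quantile normalization the split was 292 and 363. The 2 backgrounds also differ in the residual RSRP1 transcript, which was lower in KOA. Several heat shock genes responded less in iR_KOA than in KOA. HSPA6 went from 0.0353 ± 0.02 to 85.5 ± 15 FPKM in KOA (mean ± SD, n = 3), a difference of 6.37 against 3.41 in iR_KOA (gap −2.96 ± 0.22, adjusted p = 1.39e-09). With limma-voom on the recovered reads, where the unexposed libraries hold a few reads each, the HSPA6 gap was −3.53 (adjusted p = 0.213). BAG3 had 1.64 against 2.67 (gap −1.03 ± 0.14, adjusted p = 1.96e-05). Lower effects in iR_KOA were found in 5 of 12 HSP70 and HSP110 genes and in 7 of 21 of the J-protein list. They were also found in 8 of 15 heat shock factors and further targets and in 1 of 15 of the HSP90 list. None of these lists had a higher effect. The 18 ER chaperones and folding enzymes had no member past this test.

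Apart from chaperones, CLK1, the kinase of SR proteins, showed 1.89 in KOA (from 11.1 ± 0.64 to 43.8 ± 4.5 FPKM, mean ± SD, n = 3) against −0.11 in iR_KOA (gap −1.99 ± 0.11, adjusted p = 4.23e-12). Lower effects were found in 8 of 20 YAP genes, among them CCN1 (1.38 against 2.92, gap −1.54 ± 0.13, adjusted p = 2.63e-08) and AMOTL2 (1.10 against 2.57, gap −1.46 ± 0.11, adjusted p = 1.12e-09). AMOTL2 thus lay between iR_WTA and KOA in its response. CEBPD, a transcription factor of the acute phase, had 0.38 against 1.85 (gap −1.47 ± 0.10, adjusted p = 4.98e-10). In the other direction ARRDC3, an arrestin-like adaptor, had 0.32 in iR_KOA and −0.89 in KOA (gap 1.21 ± 0.11, adjusted p = 2.63e-08). KLF10 had 0.81 against −0.13 (gap 0.94 ± 0.07, adjusted p = 4.43e-09), ID1 0.83 against −0.04 (gap 0.87), the nuclear receptor corepressor NRIP1 −0.45 against −1.29 (gap 0.84) and SOCS3, an inhibitor of JAK kinases, 0.06 against −0.76 (gap 0.82). Of 13 mitochondrially encoded genes, 7 had a higher effect in iR_KOA.

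Against iR_KOA_D3 the effect differed in 500 genes (4.14%), 290 higher (2.4%) and 210 lower (1.74%) in iR_KOA. SOCS3 read 3.96, 4.35 and 4.95 FPKM against 4.36, 3.78 and 4.44 FPKM in iR_KOA (0.06) and went from 6.31 ± 0.38 to 2.44 ± 0.44 FPKM in iR_KOA_D3 (mean ± SD, n = 3; −1.09), a gap of 1.15 ± 0.12 (adjusted p = 2.79e-06). JUN had 0.68 against −0.14 (gap 0.82 ± 0.12, adjusted p = 0.000449), RND1 −0.21 against −0.99 (gap 0.78) and CXCL1 0.41 against −0.35 (gap 0.77). BMF had −0.75 against −1.53 (gap 0.77), a call lost with a pseudocount of 0.1 and with limma-voom. Lower effects were found in CHORDC1, with 1.62 against 2.37 (gap −0.75 ± 0.16, adjusted p = 0.00649), PDK4, a kinase that inhibits pyruvate dehydrogenase (−0.14 against 0.64, gap −0.78), OSGIN1 (0.04 against 0.75, gap −0.71), DYNLT2B (gap −0.75) and LOC105374333 (gap −0.72, lost in the unfiltered table, with a pseudocount of 0.1, with the 4 groups alone, with the replicate block, with limma-voom and without any of 7 of the 12 libraries in turn). In the HSP70 list 2 of 12 had a lower effect, and the YAP list had 4 higher and 3 lower among 20.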

How the data were processed

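RNA-seq libraries of A549 cells (10 groups of 3) were made by the submitters from oligo(dT)-selected RNA primed with random hexamers, per the labels' protocols, and processed with fastp, HISAT2 and HTSeq on GRCh38, per the submitters' processing notes; the notes list no versions and no strand setting. The deposited table holds the authors' FPKM for 26801 genes. All values of the 25991 genes above 0 were whole multiples, within 0.01, of a step per gene, which gave the reads per library. The table has 6 further value columns, which match no sample and were not used.

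The 12086 genes that reached 1 FPKM in 3 or more libraries were tested on log2(FPKM + 1) with limma 3.58.1 (R 4.3.3). The fit held all 10 groups, with 20 residual degrees of freedom, and used limma's trend option. Adjustment was by Benjamini-Hochberg over all these genes. Exposed were compared with unexposed libraries, and 3 differences between backgrounds were tested as interaction terms. limma-voom on the recovered reads called 4317 genes. The fit was also run on simulated data, with no outcome reported here. Nothing about how the fit handles the spread between the real libraries of a group is concluded from that run. Deviations of same-numbered exposed and unexposed libraries correlated at over 0.1 in all 3 pairs of iR_KOA_D3 (0.115, 0.156 and 0.168) and of no other background; a fit with the replicate number as a block was an alternative.

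The text names RSRP1, the 25 largest rises and falls, up to 6 passing members of each of 47 gene lists and up to 5 genes per sign of each difference, and marks genes outside this rule; a few genes that the rule takes are not reported here. The comparison, the lists and the rule were chosen with earlier results of these data known. Of 1178 list names, 7 were not matched, 119 did not pass the filter and 1052 were tested. Positions and promoters are from RefSeq (GRCh38.p14), which had a promoter for 9885 of the tested genes.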

Additional observations from a re-analysis of the deposited data

Results flagged for a closer look

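The exposure effect in iR_KOA was tested against that in 3 other backgrounds, and each test passed in some genes: 65 against iR_WTA, 614 against KOA and 500 against iR_KOA_D3. The adjusted p-values are from limma over 12086 genes, and each gap is the effect in iR_KOA minus that in the other background on the log2(FPKM + 1) scale.

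Against iR_WTA the gaps of the genes named were −0.61 for RSRP1, −0.68 for RND1, −0.67 for RASSF10, −0.61 for UBALD2, −0.59 for PNPLA3, 0.48 for CCN2, 0.54 for CXCL1, 0.62 for RRAD, 0.65 for AMOTL2 and 0.87 for CDC42EP2.

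Against KOA they were −2.96 for HSPA6, −1.99 for CLK1, −1.54 for CCN1, −1.47 for CEBPD, −1.46 for AMOTL2, 0.82 for SOCS3, 0.84 for NRIP1, 0.87 for ID1, 0.94 for KLF10 and 1.21 for ARRDC3.

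Against iR_KOA_D3 they were −0.39 for RSRP1, −0.78 for PDK4, −0.75 for CHORDC1, −0.75 for DYNLT2B, −0.72 for LOC105374333, −0.71 for OSGIN1, 0.77 for CXCL1, 0.77 for BMF, 0.78 for RND1, 0.82 for JUN and 1.15 for SOCS3. AMOTL2 responded more than in iR_WTA and less than in KOA, and SOCS3 had a gap of the same sign against both knockout backgrounds.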

How the results depend on the processing

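The count of 4272 genes stayed within 1.5 times under other pseudocounts, filters and scalings and limma-voom. Fitted on the 6 libraries alone, with fewer residual degrees of freedom and the spread of these libraries only, it was 2131. Leaving out each library in turn gave 3133 to 4477. Same-numbered exposed and unexposed libraries of iR_KOA share only a number (their deviations correlated at −0.24, 0.26 and 0.06, and exposed library 1 correlated best with unexposed library 3), and the replicate block gave 4242. For the difference to iR_WTA (65 genes) the count was 40 with a pseudocount of 0.1, 17 with only the groups compared and 31 with the replicate block. Leaving out 1 library gave 30 to 74, namely 30 without exposed library 1 of iR_WTA and 43, 39 and 37 without its unexposed libraries 1, 2 and 3. For the difference to KOA (614) it was 545 with the replicate block and 417 to 695 without 1 library. For the difference to iR_KOA_D3 (500) it was 158 with only the groups compared, 358 with the replicate block and 245 to 910 without 1 library. The counts there were 265, 245 and 910 without unexposed libraries 1, 2 and 3 of iR_KOA, 263 and 319 without exposed libraries 1 and 3 of iR_KOA_D3, and 315 and 265 without its unexposed libraries 1 and 2. The gap of RRAD to iR_WTA was −1.04 with limma-voom, reversed in sign. With the block the UBALD2 gap to iR_WTA and the LOC105374333 gap to iR_KOA_D3 did not pass. The causes were not tested. The call and sign of 213 of 260 named genes held under every setting run for the exposure comparison. limma-voom and leaving out libraries of the other backgrounds were chosen after seeing the data. Genes near 1 read per library, such as RRAD and unexposed HSPA6, are limited by depth.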
